A study of Mus musculus with 8 samples.

Results

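The genes of the osteoclast and of the RANKL axis were examined in mCherry+CD73+ cells that were FACS-sorted from the growth plate region. The cells came from 8 Pthrp-mCherry mice, of which 4 received DMSO and 4 received SAG. The 10 genes were chosen by name, for what they are known to do, and are Tnfsf11, Tnfrsf11b, Tnfrsf11a, Oscar, Nfatc1, Dcstamp, Ocstamp, Atp6v0d2, Acp5 and Ctsk, and 9 of them are among the 16536 genes of the count table. Dcstamp was not analysed here. The reporter, carried by all 8 mice, labels with mCherry those cells in which Pthlh, encoding PTHrP, is active. SAG, a small-molecule agonist of Smoothened that switches on Hedgehog (Hh) signaling, or its vehicle DMSO was injected once daily from postnatal day 30 to 36, and the mice were sacrificed at day 38. These days follow the series record, and the methods of the study give a range that is 1 day later. Both sexes were used in the study, and the labels do not give the sex of each mouse. Each library is total RNA of the sorted cells of 1 mouse. Cells were gated on viability, mCherry and CD73, and the methods name no depletion of blood cells.

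Osteoclasts are multinucleated cells of the myeloid lineage that dissolve mineralised cartilage and bone at the border of the growth plate. The cytokine RANKL (Tnfsf11), made by chondrocytes, osteoblast lineage cells and lymphocytes, binds RANK (Tnfrsf11a) on their precursors, while osteoprotegerin (Tnfrsf11b) is a secreted decoy receptor that captures RANKL. RANK signaling, together with receptors that use ITAM adaptors such as OSCAR, raises NFATc1, the transcription factor that drives the genes of fusion (Dcstamp, Ocstamp, Atp6v0d2) and of resorption (Acp5, Ctsk). The comparison asks whether these genes differed in the sorted cells after SAG treatment.

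None of the 8 genes that were tested passed the test for a difference between SAG- and DMSO-treated mice. Oscar did not pass the filter on low counts, and the other 8 genes of the table did. By edgeR's quasi-likelihood test, with Benjamini-Hochberg adjustment over 15421 genes and a threshold of 0.05, 0 of the 8 were higher and 0 were lower, against 2.62% of all tested genes that were higher and 0.266% that were lower. For 0 of the 8 did all SAG-treated mice lie above all DMSO-treated mice, which held for 7.9% of all genes, and for 0 did they lie below, which held for 3.84%. At an unadjusted p under 0.05, 0 were higher and 1, Acp5, was lower. DESeq2's Wald test gave an adjusted p for 5 of the 8 and called 0 of them in each direction, while it gave no p for Acp5 (log2 fold change -2.20, SE 0.73) and no adjusted p for Acp5, Tnfsf11 and Ocstamp. The spread between mice of 1 group was wide for several genes. Among DMSO-treated mice the highest exceeded the lowest 70.2-fold for Atp6v0d2, 11.0-fold for Acp5, 2.25-fold for Tnfrsf11a, 2.19-fold for Ctsk, 1.97-fold for Tnfrsf11b and 1.64-fold for Nfatc1, and among SAG-treated mice 5.41-fold, 2.03-fold, 2.03-fold, 4.82-fold, 8.0-fold and 1.22-fold, in CPM, the counts of a gene scaled to library size.

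**Figure D1:**
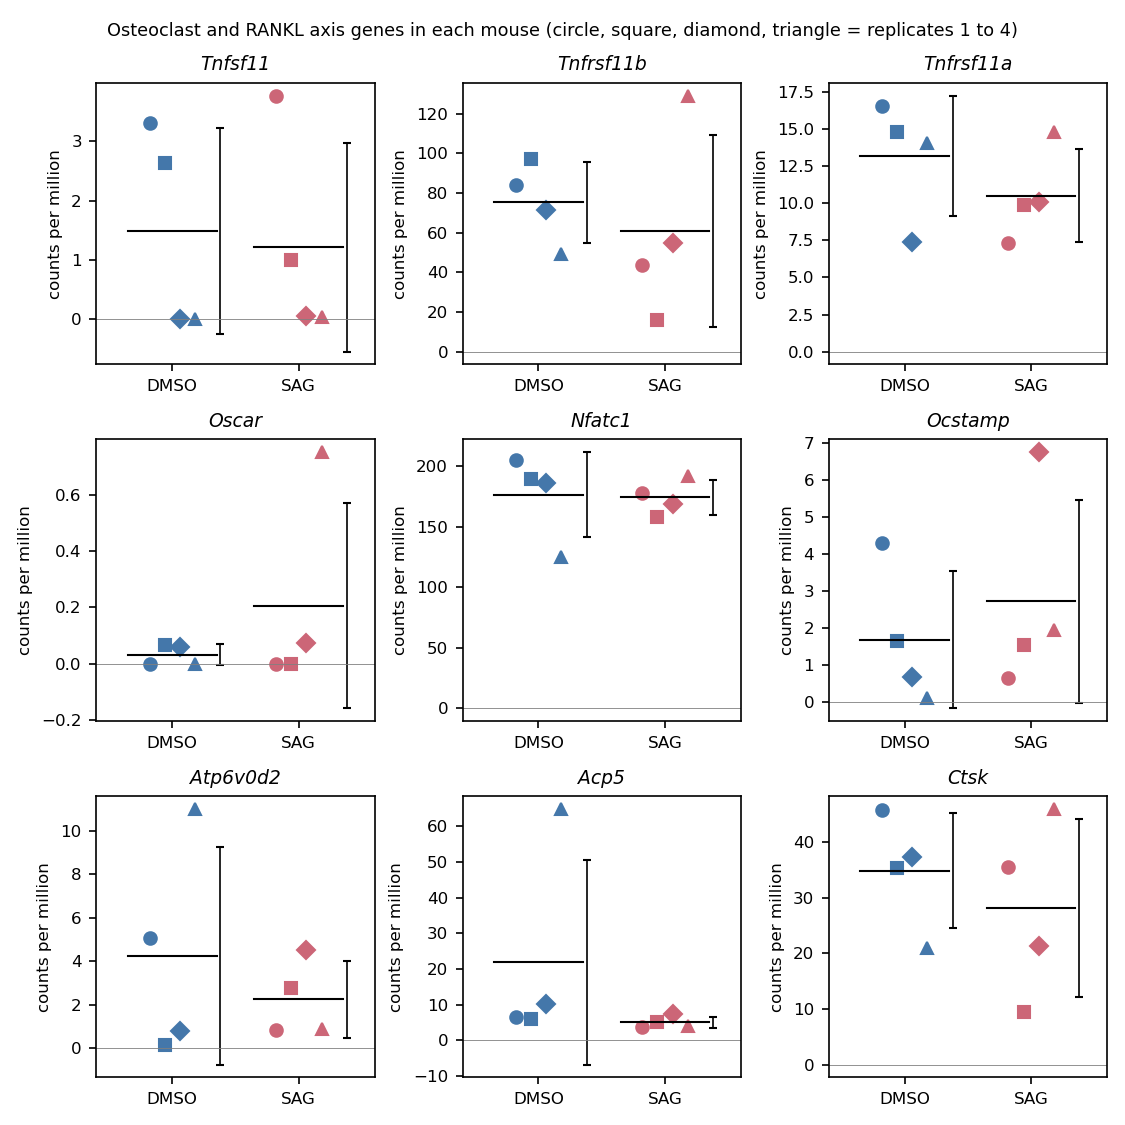
CPM (vertical axes, each from its own range) of the 9 genes in DMSO- and SAG-treated mice. Each symbol is 1 mouse, with the shape giving the replicate number, the horizontal line is the mean and the bar at its side the SD (n = 4), which falls below 0 where 1 or 2 mice carry the mean. The groups overlap in every panel.

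The libraries held between 24971992 and 46593090 counts, and 3 counts corresponded to between 0.067 and 0.114 CPM, a floor that covers counting error only. DMSO replicate 4 had the fewest counts and the fewest detected genes (14416, against 15524 to 16285 in the other mice). The labelled cell type was checked on Pthlh, on Nt5e, the gene of CD73, and on Col2a1, the main cartilage collagen, all present in all 8 libraries. In DMSO- and SAG-treated mice Pthlh was at 14.9 to 22.1 and 18.4 to 29.9 CPM (log2 fold change 0.37, edgeR adjusted p = 0.606). Nt5e was at 184 to 270 and 149 to 174 CPM, without overlap (-0.51, edgeR adjusted p = 0.185). Col2a1 was at 32500 to 68800 and 11800 to 34100 CPM (-1.02, edgeR adjusted p = 0.158). RNA of blood cells was present too. Ptprc, the gene of the leukocyte antigen CD45, was at 179 to 402 CPM in DMSO-treated and at 520 to 816 CPM in SAG-treated mice (log2 fold change 1.26, edgeR adjusted p = 0.0255). In bulk samples fewer cells of a type and less RNA per cell cannot be told apart. No p-value below measures more than the spread between these mice.

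Tnfsf11, the gene of RANKL (chr14:78277445-78308043, minus strand, GRCm38), was close to present or absent by mouse. In DMSO replicates 1 to 4 there were 142, 118, 0 and 0 counts, and in SAG replicates 1 to 4 there were 131, 42, 2 and 2 counts. Replicates 1 and 2 of each group lay well above the floor of 3 counts, at 0.998 to 3.77 CPM, and replicates 3 and 4 of each group lay below it. Its log2 fold change was -0.30 (SE 1.87, 95% interval -4.40 to 3.81, edgeR adjusted p = 0.963). The interval spans 0.0472-fold to 14.0-fold.

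Replicate numbers do not mark a shared animal, litter or day in the labels, and what separated the mice with Tnfsf11 counts from those without was not tested. The total was 42833394, 44300843, 32821357 and 24971992 counts in DMSO replicates 1 to 4 and 34338935, 43170089, 40317009 and 46593090 counts in SAG replicates 1 to 4. The summed level of the osteoblast markers, from the lineage known to make RANKL, was 9380, 1870, 2300 and 1590 CPM in DMSO replicates 1 to 4 and 2090, 4100, 1720 and 2140 CPM in SAG replicates 1 to 4. The highest value in each group fell on a mouse with Tnfsf11 counts, and DMSO replicate 2, with 118 counts, lay below DMSO replicate 3, with 0. The summed T and NK cell markers, of lymphocytes that can also make RANKL, lay between 42.4 and 86.4 CPM in DMSO-treated mice and between 44 and 52.7 CPM in SAG-treated mice.

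Tnfrsf11b, the gene of osteoprotegerin (chr15:54250619-54278484, minus strand), was detected in every mouse. It was at 83.9, 96.9, 71.2 and 49.1 CPM in DMSO replicates 1 to 4 and at 43.5, 16.1, 55.0 and 129 CPM in SAG replicates 1 to 4. The SAG group covered both the lowest and the highest value, and the SD was 20.4 CPM in DMSO- and 48.2 CPM in SAG-treated mice. Tnfrsf11b had a log2 fold change of -0.31 (SE 0.48, 95% interval -1.37 to 0.75, edgeR adjusted p = 0.838), or 0.388-fold to 1.69-fold.

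The ratio of ligand to decoy receptor followed Tnfsf11. On a level scaled to transcript length (TPM, from counts divided by the summed exon length of the gene), Tnfsf11 amounted to 4.97% and 3.43% of Tnfrsf11b in DMSO replicates 1 and 2 and to 10.9% and 7.81% in SAG replicates 1 and 2. In the other 4 mice it amounted to at most 0.114%. Osteoprotegerin transcripts thus outnumbered those of RANKL in all 8 mice. The log2 ratio of counts, with 0.5 added to each, was -8.35 ± 3.97 (SD, n = 4) in DMSO-treated and -7.11 ± 3.91 in SAG-treated mice. The difference of 1.24 was smaller than either SD (exact 2-sided permutation test over 70 relabellings, p = 0.514, where the smallest possible p is 0.0286). With 5 added in place of 0.5 the difference was 0.34, so its size depended on the number added where Tnfsf11 had few or no counts.

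**Figure D2:**
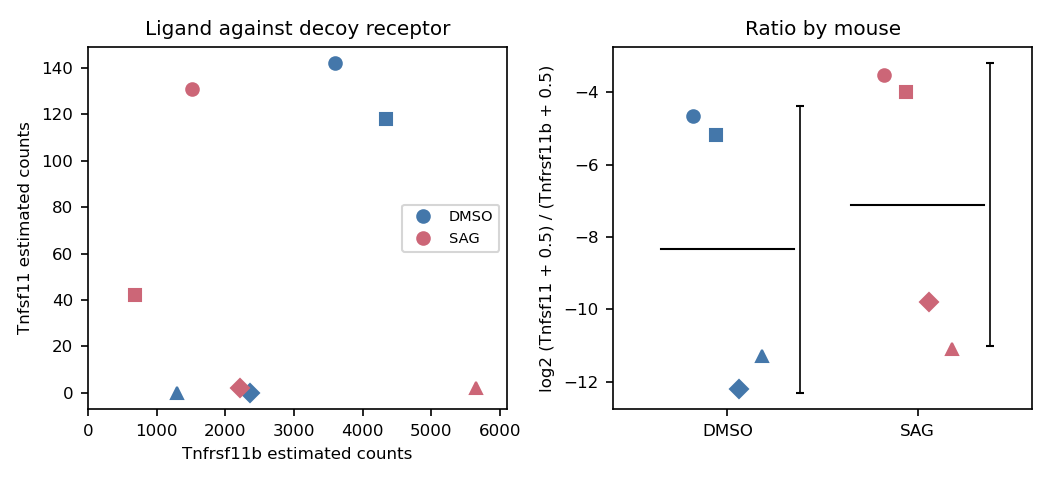
Left, estimated counts of Tnfsf11 against those of Tnfrsf11b, 1 symbol per mouse, DMSO in blue and SAG in red, with shapes for replicates 1 to 4. Right, the log2 ratio of both counts by group with mean and SD (n = 4), in which replicates 1 and 2 of each group sit between -5.19 and -3.53 and replicates 3 and 4 between -12.2 and -9.79.

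Chondrocytes themselves express osteoprotegerin, and the chondrocyte markers lay lower in SAG-treated mice without passing the test in any of the 12 genes (median log2 fold change -1.01, summed level 44700 to 101000 CPM in DMSO- and 17200 to 52000 CPM in SAG-treated mice). Relative to the mean log2 CPM of these 12 genes, Tnfrsf11b lay at -4.65, -3.92, -4.54 and -4.17 in DMSO replicates 1 to 4 and at -4.24, -4.42, -3.97 and -3.07 in SAG replicates 1 to 4. The groups overlapped, and the difference was 0.39 (exact 2-sided permutation test, p = 0.343, adjusted over 2 tests p = 0.514). For Tnfsf11 on the same scale the difference was 1.20, with SDs of 3.09 and 3.01 (exact 2-sided permutation test, p = 0.514, adjusted over 2 tests p = 0.514).

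Tnfrsf11a, the gene of the receptor RANK (chr1:105780718-105847981, plus strand), was present in every mouse at a low level. It was at 16.6, 14.8, 7.37 and 14.1 CPM in DMSO replicates 1 to 4 and at 7.30, 9.91, 10.1 and 14.8 CPM in SAG replicates 1 to 4. SAG replicate 4 reached DMSO replicates 2 and 4, and DMSO replicate 3 lay with the lowest SAG-treated mouse. Tnfrsf11a had a log2 fold change of -0.33 (SE 0.40, 95% interval -1.21 to 0.55, edgeR adjusted p = 0.773).

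Oscar, which encodes a collagen receptor that costimulates RANK (chr7:3609813-3616157, minus strand), had 0, 3, 2 and 0 counts in DMSO replicates 1 to 4 and 0, 0, 3 and 33 counts in SAG replicates 1 to 4. Only SAG replicate 4, at 0.753 CPM, exceeded the floor of 3 counts. Without the filter the log2 fold change was 2.51 (SE 1.94, edgeR adjusted p = 0.609), a value that rests on that 1 mouse. Of the 9 genes in the count table, Oscar was the only one at or below this floor in most mice.

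Nfatc1, the transcription factor at the centre of osteoclast differentiation, which is also expressed outside that lineage, was the steadiest of the 9 genes. It was at 205, 189, 186 and 125 CPM in DMSO replicates 1 to 4 and at 178, 158, 169 and 192 CPM in SAG replicates 1 to 4. DMSO replicate 4 lay lowest and the other 7 mice were within 158 to 205 CPM. The fitted log2 fold change was -0.02 (SE 0.19, 95% interval -0.43 to 0.39, edgeR adjusted p = 0.980), which bounds a change of Nfatc1 to between 0.742-fold and 1.31-fold.

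The promoters of 5 of the 9 genes are in the RefSeq table used here (GRCm38.p6), which were Tnfsf11, Tnfrsf11a, Oscar, Acp5 and Ctsk. NFATc1 is known to drive Oscar, Acp5 and Ctsk, whose levels spread more widely over these mice than that of Nfatc1, and the 250 bases before the start of these 3 genes are shown for that reason. Capitals mark the NFAT core GGAAA or its reverse complement TTTCC, and the AP-1 motif TGANTCA was searched as well. The Oscar window is chr7:3616158-3616407, that of the outermost of 3 Acp5 starts is chr9:22135747-22135996, both on the minus strand, and that of Ctsk is chr3:95498960-95499209 on the plus strand.
Oscar: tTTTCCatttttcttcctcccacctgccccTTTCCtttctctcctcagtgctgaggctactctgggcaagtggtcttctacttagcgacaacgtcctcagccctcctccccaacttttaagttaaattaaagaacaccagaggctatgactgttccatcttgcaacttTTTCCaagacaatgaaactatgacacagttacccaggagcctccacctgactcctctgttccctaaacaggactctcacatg
Acp5: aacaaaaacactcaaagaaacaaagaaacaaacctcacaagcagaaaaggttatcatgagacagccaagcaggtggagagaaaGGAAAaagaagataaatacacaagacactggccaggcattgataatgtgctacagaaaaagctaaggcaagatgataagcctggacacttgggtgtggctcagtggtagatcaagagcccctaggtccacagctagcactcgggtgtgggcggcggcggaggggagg
Ctsk: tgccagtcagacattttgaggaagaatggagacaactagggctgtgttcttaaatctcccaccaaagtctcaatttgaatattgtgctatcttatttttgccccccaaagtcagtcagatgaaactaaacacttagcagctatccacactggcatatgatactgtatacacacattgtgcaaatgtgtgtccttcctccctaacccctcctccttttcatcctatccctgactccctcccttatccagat

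The Oscar window holds 3 matches to the NFAT core, a number reached by 6.39% of all 32851 promoter windows of this length. The Acp5 window shown holds 1 match, and the windows of its middle and innermost starts hold 1 and 2. The innermost window is chr9:22130599-22130848. Which Acp5 start these cells used cannot be told from counts per gene. The Ctsk window holds 0 matches, while 55.6% of all windows hold at least 1. The Tnfsf11 window holds 1 match and the Tnfrsf11a window 0. The AP-1 motif, found in 6.75% of all windows, is in 0 of the 7 windows of these genes. A match of letters is not a binding site, and a window without one says only that the letters are not in it.

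Ocstamp, which encodes a membrane protein needed for fusion of precursors (chr2:165393760-165400405, minus strand), was at 4.29, 1.67, 0.694 and 0.114 CPM in DMSO replicates 1 to 4 and at 0.661, 1.54, 6.75 and 1.96 CPM in SAG replicates 1 to 4. DMSO replicate 4, with 3 counts, lay at the floor. Ocstamp had a log2 fold change of 0.69 (SE 1.17, 95% interval -1.87 to 3.24, edgeR adjusted p = 0.852), and without SAG replicate 3 it was -0.28.

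Atp6v0d2, a subunit of the proton pump that also serves fusion (chr4:19876841-19922605, minus strand), was at 5.06, 0.156, 0.785 and 11.0 CPM in DMSO replicates 1 to 4 and at 0.834, 2.76, 4.51 and 0.890 CPM in SAG replicates 1 to 4. DMSO-treated mice held both extremes. Atp6v0d2 had a log2 fold change of -0.91 (SE 1.15, 95% interval -3.44 to 1.61, edgeR adjusted p = 0.782), and without DMSO replicate 4 it was 0.20.

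Acp5, the gene of the tartrate-resistant acid phosphatase used to stain osteoclasts (chr9:22126727-22135711, minus strand), had the largest fold change of the 8 genes tested. It was at 6.64, 5.89, 10.1 and 64.9 CPM in DMSO replicates 1 to 4 and at 3.56, 5.06, 7.25 and 3.99 CPM in SAG replicates 1 to 4. DMSO replicate 4 lay far above all other mice, and SAG replicate 3 lay above DMSO replicates 1 and 2. The log2 fold change was -2.14 (SE 0.75, 95% interval -3.79 to -0.49, edgeR unadjusted p = 0.0157, adjusted p = 0.173). Without DMSO replicate 4 it was -0.57 (edgeR adjusted p = 0.548). The gene 6530413G14Rik overlaps Acp5 on the other strand, and how the counting treated strand is not given in the sources used here.

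DMSO replicate 4 carried the highest Acp5 and Atp6v0d2 and the lowest Nfatc1, Ocstamp and Tnfrsf11b of the DMSO-treated mice. In the same mouse the summed erythroid markers were 9920 CPM, against 1070 to 3820 CPM in the other DMSO-treated mice, the B-lineage markers 433 CPM against 86.6 to 278 CPM, and the chondrocyte markers 44700 CPM against 78400 to 101000 CPM. On the log2 scale the gap of this mouse to the next was 0.778 of its group range for Acp5 and 0.798 for Nfatc1. Both lay under the 95% critical value of Dixon's outlier test, as did all 20 such gaps examined. DESeq2, which withholds the p of a gene with an outlying count, gave none for Acp5. Which mouse it flagged was not examined. The mean log2 CPM of the macrophage markers was 4.79 in this mouse, within the 4.64 to 5.05 of the other DMSO-treated mice. Their sum, however, was 2190 CPM, against 844 to 1310 CPM in those mice. Without the lysozyme gene Lyz2 the sum was 672 CPM, within the group's 448 to 743 CPM. The summed neutrophil markers were 15200 CPM, against 5310 to 10500 CPM. The part of other cells in the Acp5 difference was not tested.

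Ctsk, the gene of cathepsin K, the collagen-degrading protease of osteoclasts (chr3:95499256-95509362, plus strand), did not share this pattern. It was at 45.8, 35.3, 37.4 and 21 CPM in DMSO replicates 1 to 4 and at 35.5, 9.53, 21.4 and 46.0 CPM in SAG replicates 1 to 4. DMSO replicate 4, with the highest Acp5, had the lowest Ctsk of its group. The log2 fold change was -0.31 (SE 0.43, 95% interval -1.26 to 0.64, edgeR adjusted p = 0.806), or 0.418-fold to 1.56-fold.

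**Figure D3:**
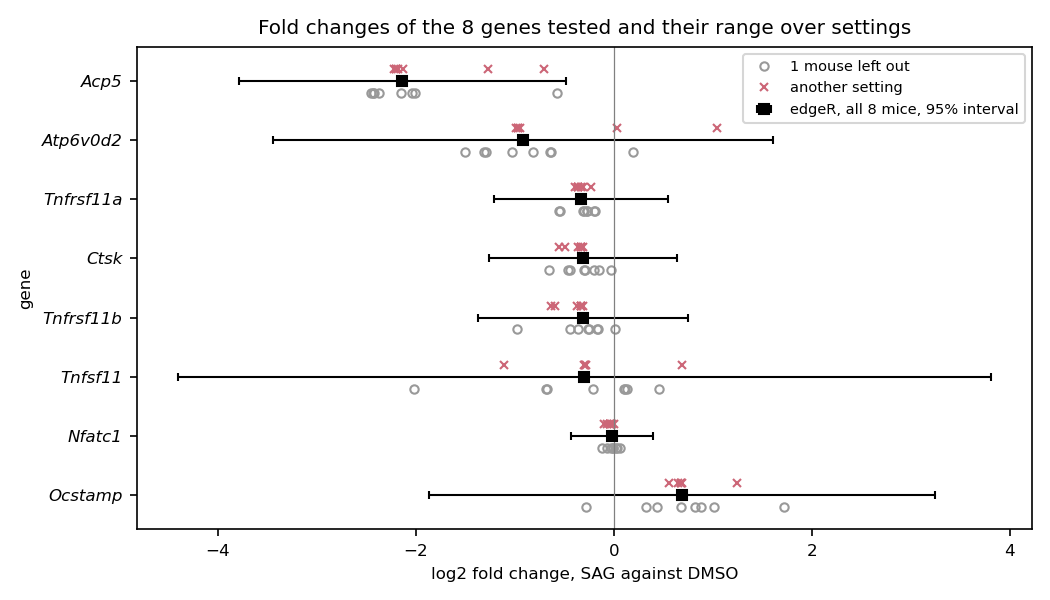
Log2 fold changes, SAG against DMSO (horizontal axis), of the 8 genes tested. Black squares and bars are edgeR's value and 95% interval from all 8 mice, grey circles the fits with 1 mouse left out and red crosses the other settings. The intervals, which are not adjusted for the number of genes, span 0 for 7 genes and not for Acp5, whose value moved to -0.57 without DMSO replicate 4.

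By length-scaled level, mean TPM over the 8 mice was 77.8 for Tnfrsf11b, 75.2 for Nfatc1 and 67.6 for Ctsk, followed by 21.3 for Acp5, 6.39 for Tnfrsf11a, 3.85 for Atp6v0d2, 2.05 for Tnfsf11, 1.92 for Ocstamp and 0.190 for Oscar. The value of Acp5 rested on DMSO replicate 4 at 104 TPM, without which the mean was 9.60, and that of Atp6v0d2 was then 2.53. Tnfrsf11b exceeded Nfatc1 in 5 of 8 mice and Nfatc1 exceeded Ctsk in 6 of 8, so the order within the first 3 did not hold by mouse. Ctsk exceeded Acp5 in 7 of 8 mice, Acp5 exceeded Tnfrsf11a in 7 of 8 and Tnfrsf11a exceeded Atp6v0d2 in 7 of 8. Tnfsf11 exceeded Ocstamp in 4 of 8.

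After the group means of log2 CPM were subtracted, the osteoclast genes did not rise and fall as 1 block over the 8 libraries. Ctsk followed Tnfrsf11b (Pearson's r = 0.881) and ran against Acp5 (r = -0.511). Acp5 followed Atp6v0d2 (r = 0.71) and ran against Nfatc1 (r = -0.932). SAG replicate 2 had the lowest Ctsk (9.53 CPM) and the lowest Tnfrsf11b (16.1 CPM) of the 8 mice, and r without it was not computed. DMSO replicate 4, at an extreme of Acp5, Atp6v0d2 and Nfatc1, weighs in the 2 values of Acp5 with Atp6v0d2 and with Nfatc1. All points share library depth and cell make-up, so these are descriptions without a test.

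Among tested genes with a mean of at least 5 CPM, those whose pattern over the 8 libraries was most like that of Ctsk were Zhx3 (r = 0.996), Cobll1 (r = 0.996), Pde4dip (r = 0.995), Rpl22l1 (r = 0.989) and Lrp5 (r = 0.986). For Tnfrsf11b they were Fxyd1 (r = 0.992), Arf4 (r = 0.987), Gxylt2 (r = 0.973), Twsg1 (r = 0.971) and Col6a2 (r = 0.965). For Tnfsf11 they were Entpd7 (r = 0.993), Nol6 (r = 0.975), Top3b (r = 0.971), Agap1 (r = 0.958) and Tarbp2 (r = 0.958). These are the highest of 11198 values for Ctsk and Tnfrsf11b and of 11199 for Tnfsf11, after subtraction of the group means. None of the 15 is among the macrophage or osteoclast genes listed here. Those lists are so short beside the number of candidates that this is not read as a result.

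The osteoclast genes were set against the macrophage markers, since both come from the myeloid lineage. The mean log2 CPM of the 15 macrophage markers was 4.84 ± 0.171 (SD, n = 4) in DMSO-treated and 5.25 ± 0.472 in SAG-treated mice, and 1 of the 15, Ly6c2, rose (log2 fold change 1.48, edgeR adjusted p = 0.0452). Relative to that mean, Acp5 lay at -1.17 ± 1.63 in DMSO- and -2.98 ± 0.255 in SAG-treated mice, Ctsk at 0.231 ± 0.425 and -0.659 ± 1.15, Tnfrsf11a at -1.17 ± 0.552 and -1.89 ± 0.426, and Nfatc1 at 2.60 ± 0.312 and 2.19 ± 0.490. Ocstamp lay at -4.87 ± 1.94 and -4.26 ± 0.883, and Atp6v0d2 at -4.02 ± 2.49 and -4.39 ± 0.909. These differences were not tested.

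Genes of the wider pathway were counted in the same way. In 7 lists of RANK signaling, ITAM costimulation, the M-CSF axis, transcription factors, fusion, resorption and regulators of RANKL and osteoprotegerin, 96 genes other than the 9 above were tested. Of these, 6 were higher and 0 were lower in SAG-treated mice (edgeR adjusted p under 0.05), or 6.25%, against 2.62% higher and 0.266% lower over all genes. A fold change above 1 was found for 63 of 96, or 65.6%, against 45.2% of all genes. Whether these shares differ from those of the 8 genes above, of which 0 were higher, was not tested. Their median log2 fold change was 0.29, against -0.08 over all 15421 genes. The 6 genes were Mmp9, Cd44, Sirpa, Fcer1g, Pira2 and Osm, all of which are also expressed by neutrophils or monocytes outside the osteoclast lineage.

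Among the 18 resorption genes tested, which include Acp5 and Ctsk, 1 rose, a count near the 2.62% of all genes. Mmp9, a gelatinase of osteoclasts that is also stored in neutrophil granules, was at 159, 152, 273 and 323 CPM in DMSO replicates 1 to 4 and at 727, 1310, 933 and 1300 CPM in SAG replicates 1 to 4. The groups did not overlap (log2 fold change 2.24, SE 0.30, edgeR adjusted p = 0.0102). The list's median log2 fold change was 0.41. The proton pump subunit Tcirg1 (0.44, edgeR adjusted p = 0.506), the chloride transporter Clcn7 (-0.06, adjusted p = 0.948), carbonic anhydrase Car2 (-0.15, adjusted p = 0.958) and the integrin subunit Itgb3 (1.20, adjusted p = 0.356) did not pass the test. Nor did Plekhm1 (0.85, edgeR adjusted p = 0.0634), Ostm1 (1.06, adjusted p = 0.163) and Rab7 (0.45, adjusted p = 0.183). All SAG-treated mice lay above all DMSO-treated mice for 5 of the 18 and below for 0. The 5 were Mmp9, Itgb3, Plekhm1, Ostm1 and Rab7. Over all genes this held for 7.9% and 3.84%.

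Of the 8 fusion genes tested, 2 rose, against 2.62% of all genes. All SAG-treated mice lay above all DMSO-treated mice for 3 of the 8 and below for 0, against 7.9% and 3.84% of all genes. Cd44, a hyaluronan receptor, was at 262 to 344 CPM in DMSO-treated and at 512 to 826 CPM in SAG-treated mice (log2 fold change 1.18, SE 0.19, edgeR adjusted p = 0.0116). Sirpa, the receptor for CD47 on myeloid cells, was at 111 to 159 CPM and at 229 to 378 CPM (log2 fold change 1.23, SE 0.20, edgeR adjusted p = 0.0128). The list's median was 0.55, and the median includes Ocstamp and Atp6v0d2.

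Of the 12 ITAM costimulation genes tested, 2 rose, against 2.62% of all genes. All SAG-treated mice lay above all DMSO-treated mice for 5 of the 12 and below for 1, against 7.9% and 3.84% of all genes. Fcer1g, an adaptor that carries the ITAM, was at 112 to 199 CPM in DMSO-treated and at 260 to 447 CPM in SAG-treated mice (log2 fold change 1.35, SE 0.23, edgeR adjusted p = 0.0140). Pira2, an activating receptor that pairs with this adaptor, was at 7.95 to 14.2 CPM and at 24.0 to 43.4 CPM (log2 fold change 1.50, SE 0.33, edgeR adjusted p = 0.0323), and it belongs to a family of near-identical genes between which reads can be split. The other adaptor, Tyrobp, was at a log2 fold change of 1.21 (edgeR adjusted p = 0.0791), and Trem2, a receptor of macrophages and osteoclasts, at -0.04 (adjusted p = 0.992). The list's median was 0.74.

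Of the 21 regulators of RANKL and osteoprotegerin tested, 1 rose, again near the 2.62% of all genes. All SAG-treated mice lay above all DMSO-treated mice for 2 of the 21 and below for 0, against 7.9% and 3.84% of all genes. Osm, the cytokine oncostatin M, was at 92.1, 93.4, 124 and 109 CPM in DMSO replicates 1 to 4 and at 154, 214, 232 and 343 CPM in SAG replicates 1 to 4 (log2 fold change 1.17, SE 0.24, edgeR adjusted p = 0.0263). Receptors of the list lay on both sides without passing the test, with log2 fold changes of -1.31 for Pth1r (edgeR adjusted p = 0.0928), the receptor of PTH and PTHrP, -0.77 for Osmr (adjusted p = 0.490), the oncostatin M receptor, and 0.95 for Il17ra (adjusted p = 0.110), an interleukin 17 receptor subunit. The list's median was -0.30.

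In the remaining lists 0 genes passed the test in either direction. These were the 29 genes of RANK signal transduction, Nfatc1 included (median log2 fold change 0.21), the 10 transcription factors (0.39) and the 3 genes of the M-CSF axis (0.05). In the RANK list, all SAG-treated mice lay above all DMSO-treated mice for 5 of the 29 and below for 2. Over all genes this held for 7.9% and 3.84%. Mapk14 was among the 5 (log2 fold change 0.88, edgeR adjusted p = 0.054) and Mapk8 among the 2 (-0.998, adjusted p = 0.101). Both passed the threshold with DESeq2's Wald test and with limma voom. Traf6, the adaptor bound by RANK, was at a log2 fold change of 0.44 (edgeR adjusted p = 0.643), Fos, an AP-1 subunit needed for Nfatc1 induction, at -0.13 (adjusted p = 0.860), Csf1, the gene of M-CSF, at 0.05 (adjusted p = 0.948) and its receptor Csf1r at 0.17 (adjusted p = 0.853). Spi1, the myeloid factor PU.1, was at 0.93 (adjusted p = 0.157).

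**Figure D4:**
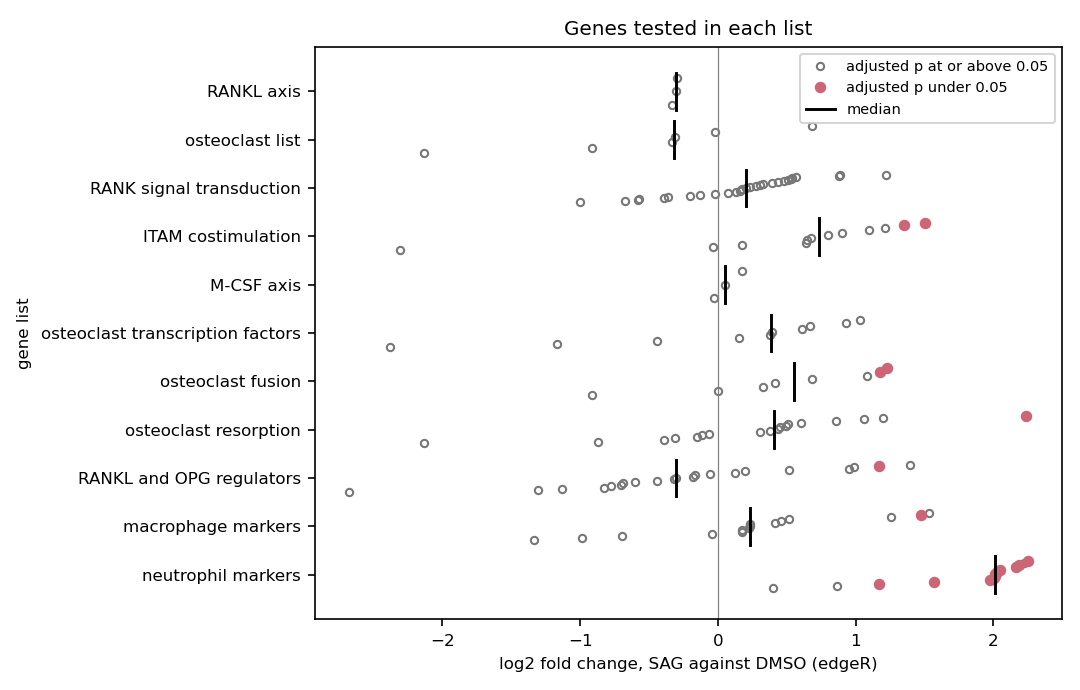
Log2 fold changes (horizontal axis) of every tested gene in each list. Open grey points did not pass edgeR's test, filled red points did, and the black bar is the list's median. Filled points are few in the osteoclast lists (6 genes in all) and fill most of the neutrophil list (11 of 14).

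Markers of neutrophils and macrophages were read beside the 6 genes. Of 14 neutrophil markers 11 rose (median log2 fold change 2.01), and their summed level was 5310 to 15200 CPM in DMSO-treated and 28700 to 45700 CPM in SAG-treated mice. S100a8, a defining granulocyte gene, was at 639 to 1750 CPM and at 4180 to 6230 CPM. The summed macrophage markers were 844 to 2190 CPM and 2300 to 3500 CPM, of which Lyz2, a lysozyme gene that neutrophils also express, made up 396 to 1520 CPM and 1580 to 2680 CPM. The other 14 markers summed to 448 to 743 CPM and 718 to 1070 CPM, which overlap, and the median log2 fold change of the list was 0.23. Vsig4, a marker of resident macrophages, was at 0 in DMSO replicate 4 and SAG replicate 1. It was low in both groups, with means of 3.83 CPM in DMSO- and 1.51 CPM in SAG-treated mice. The other 14 markers were above 0 in both of those mice. The part of either list in the change of the 6 genes was not tested. With 1 mouse left out, between 1 and 6 of the 6 genes passed the test, with all fold changes above 1. Without DMSO replicate 2 or without DMSO replicate 3 it was 1 of them, without SAG replicate 4 it was 2, and without DMSO replicate 1, SAG replicate 2 or SAG replicate 3 it was 4. Without DMSO replicate 4, all 6 passed and the pathway lists held 24 higher genes and 1 lower gene, Pth1r, a gene named here after its values were seen.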

How the data were processed

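RNA was extracted with the RNeasy Micro kit and made into strand-marking total RNA libraries for very small inputs. The authors deposited estimated counts per gene and library, all whole numbers, without normalization. Their processing notes name kallisto, DESeq2 and GRCm38, without versions. Of the table's 16536 symbols, 16524 were found in GENCODE M21 (GRCm38), which gave positions and exon lengths for TPM. Symbols that were not found had no exon length and were left out of the TPM scaling.

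The fit was made by edgeR 4.0.16 in R 4.3.3 (filterByExpr, TMM, robust quasi-likelihood test, Benjamini-Hochberg adjustment, threshold 0.05), which kept 15421 genes. CPM uses TMM-scaled library sizes, and log2 CPM a prior count of 2. Alternatives used limma 3.58.1 and DESeq2 1.42.0. Exact permutation tests used scipy. The fits were tested on simulated data. No pair of libraries agreed within sampling noise. Genes named from each list are those past the threshold, plus genes at 0; Ptprc, S100a8, Ly6c2, Lyz2, the identity markers and the pathway genes that did not pass were named after their values were seen. The 10 genes, the lists and the tests were chosen with earlier results of these data known.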

Additional observations from a re-analysis of the deposited data

How the results depend on the processing

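None of the osteoclast and RANKL axis genes passed the threshold in any of the 15 alternative fits in which it had an adjusted p, which DESeq2 did not give for Acp5, Tnfsf11 and Ocstamp, and Oscar was tested only with no filter on low counts. The labels give no ground for pairing mice by replicate number, and the correlation of deviations between same-numbered mice was 0.12, 0.0219, 0.0195 and 0.0102. With the replicate block 0 of the genes were higher and 0 lower. Directions reversed in fits far from the threshold. With the replicate block the log2 fold change was 0.69 for Tnfsf11, 0.00107 for Nfatc1 and 0.0304 for Atp6v0d2, and with limma voom and sample quality weights it was 1.04 for Atp6v0d2. With 1 mouse left out it ranged from -2.02 to 0.46 for Tnfsf11, -0.98 to 0.0115 for Tnfrsf11b, -0.12 to 0.0659 for Nfatc1, -0.28 to 1.72 for Ocstamp and -1.50 to 0.20 for Atp6v0d2. Acp5 kept its direction, from -2.45 to -0.57, and was at -0.70 with limma voom. Ctsk, from -0.65 to -0.0229, and Tnfrsf11a, from -0.555 to -0.189, also kept theirs with 1 mouse left out. The log2 ratio of Tnfsf11 to Tnfrsf11b differed by -0.0495 to 2.58 with 1 mouse left out and by 0.34 with 5 added to the counts. The replicate block, which cannot change this difference, gave an exact sign-flip p = 0.125. That is the smallest p this test can give with so few pairs, so it could not pass the threshold. Relative to the chondrocyte markers the difference ranged from 0.161 to 2.13 for Tnfsf11 and from 0.109 to 0.56 for Tnfrsf11b with 1 mouse left out, and with a prior count of 0.5 it was 1.83 for Tnfsf11. Tnfsf11, Ocstamp and Atp6v0d2 have no value with at least 10 counts in every library. Over all genes DESeq2's Wald test called 812 higher and 413 lower, limma voom 972 and 387, the filter of 10 counts left 87 lower, and the replicate block 18 lower. With 1 mouse left out the counts ranged from 80 to 1017 higher and from 4 to 343 lower. Of the pathway genes other than the 9, 16 were higher with DESeq2, 20 with limma voom, 12 with the filter of 10 counts and 1 to 24 with 1 mouse left out. DESeq2 and limma voom each called 3 lower (Blnk, Mapk8 and Pth1r, and Mapk8, Osmr and Pth1r, named after their values were seen), against 0 to 1 with 1 mouse left out. With the replicate block 5 of the 6 kept their call and Pira2 did not (log2 fold change 1.49, edgeR adjusted p = 0.0688). The alternatives for the pathway genes were added after the data had been seen, and the causes of these differences were not tested. The number of mice and the depth at Tnfsf11 and Oscar limit what could be detected.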
